A study of Saccharomyces cerevisiae with 7 samples.

Results

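Trehalose and glycogen are the storage carbohydrates of *Saccharomyces cerevisiae*, and 10 genes of their synthesis and breakdown (*TPS1*, *TPS2*, *TPS3*, *TSL1*, *NTH1*, *GSY1*, *GSY2*, *GLC3*, *GPH1* and *PGM2*) were followed across strains that express differently modified GFPs at a high level. They were picked by gene symbol out of 6225 systematic names on the array, and all 10 were found, each with 1 probe. Every strain was BY4741 (MATa his3Δ1 leu2Δ0 met15Δ0 ura3Δ0) with a plasmid of the pTOW type, which carries *URA3* and the weak *leu2d* allele, and was grown to the mid log phase in SC–Ura. MTS-GFP had the mitochondrial targeting signal of Mrps12, SS-GFP the secretion signal of EP procyclin from *Trypanosoma brucei*, and GFPm3 the mutations that make GFP misfold, and all of these were expressed from *PYK1pro*. NES-GFP had the nuclear export signal of the human inhibitor of cAMP-dependent protein kinase and was expressed from *HXT7pro*. GFP-Deg had the degradation signal of mouse ornithine decarboxylase and was expressed from *TDH3pro*, as was the unmodified GFP. The empty vector was the control. The promoter therefore differed together with the modification in several of the comparisons, and their parts cannot be told apart there.

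There was 1 array for each of the 7 strains, so no value has a replicate error and no test could be made. The error given is the SD between the 7 spots of a probe on an array, which was 0.018 to 0.088 on the log2 scale for the 10 genes. It leaves out the differences between cultures, labellings and hybridizations. MTS-GFP, NES-GFP, GFPm3 and the empty vector were on slide 1, and SS-GFP, GFP-Deg and GFP were on slide 2. On every array, 7 of the 7 spots of each of the 10 genes were well above background. The host markers *HIS3* and *MET15* were well above background on 0 of the 7 arrays, and *URA3* and *LEU2*, which the plasmid carries, on all 7. Because each array measured a whole culture, fewer cells with a transcript and less of that transcript per cell cannot be told apart.

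Trehalose is made from UDP-glucose and glucose-6-phosphate by the trehalose synthase complex, in which a synthase and a phosphatase work with regulatory subunits, and it is split into glucose by trehalases. Glycogen is made from UDP-glucose by glycogen synthase on a glycogenin primer, is branched by a branching enzyme, and is broken down by glycogen phosphorylase together with a debranching enzyme. Phosphoglucomutase interconverts glucose-6-phosphate and glucose-1-phosphate and so connects both pathways to glycolysis. In yeast, both carbohydrates and the transcripts of these enzymes are known to accumulate when growth slows, when glucose runs out and under stress, and many of the genes belong to the general stress response.

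Levels are given as the scaled signal, in which 1 is the 75th percentile of the array on which it was measured. The deviation is the log2 level of a gene minus its mean over the 7 arrays, and over 2-fold means a deviation or a difference above 1 in size. The 10 genes were high in MTS-GFP, where their median deviation was 0.85, and low in GFPm3, where it was -0.90. The next highest median was that of NES-GFP, 0.27, and the next lowest that of GFP-Deg, -0.52. NES-GFP was not the second highest array for *TPS1*, *TPS2*, *TPS3* and *GSY1*. In GFP, SS-GFP and the empty vector, the medians lay between 0.14 and -0.07. Over all genes, the median deviation in an array was between 0.04 and -0.05.

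The ends of the order of arrays were shared by most of the genes. In MTS-GFP, 10 of the 10 lay above their mean over the arrays (43.9% of all genes did), and 9 of the 10 had their highest level there (16.5% of all genes). In GFPm3, 10 of the 10 lay below their mean (45.4% of all genes), and 9 of the 10 had their lowest level there (15.5% of all genes). The exceptions were *GSY1*, which was highest in SS-GFP, and *NTH1*, which was lowest in GFP-Deg. In GFP-Deg, 10 of the 10 lay below their mean (44.9% of all genes), and in NES-GFP 9 of the 10 lay above it (43.7% of all genes). In at least 1 array, *TSL1*, *GSY1*, *GSY2*, *GPH1* and *PGM2*, that is 5 of the 10, deviated by more than 2-fold, against 8.96% of all genes. Of these, *TSL1*, *GSY2*, *GPH1* and *PGM2* were over 2-fold higher in MTS-GFP (2.75% of all genes), and *GSY1*, *GPH1* and *PGM2* were over 2-fold lower in GFPm3 (1.17% of all genes). *GPH1* alone of the 10 was over 2-fold lower in GFP-Deg (1.22% of all genes).

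**Figure D1:**
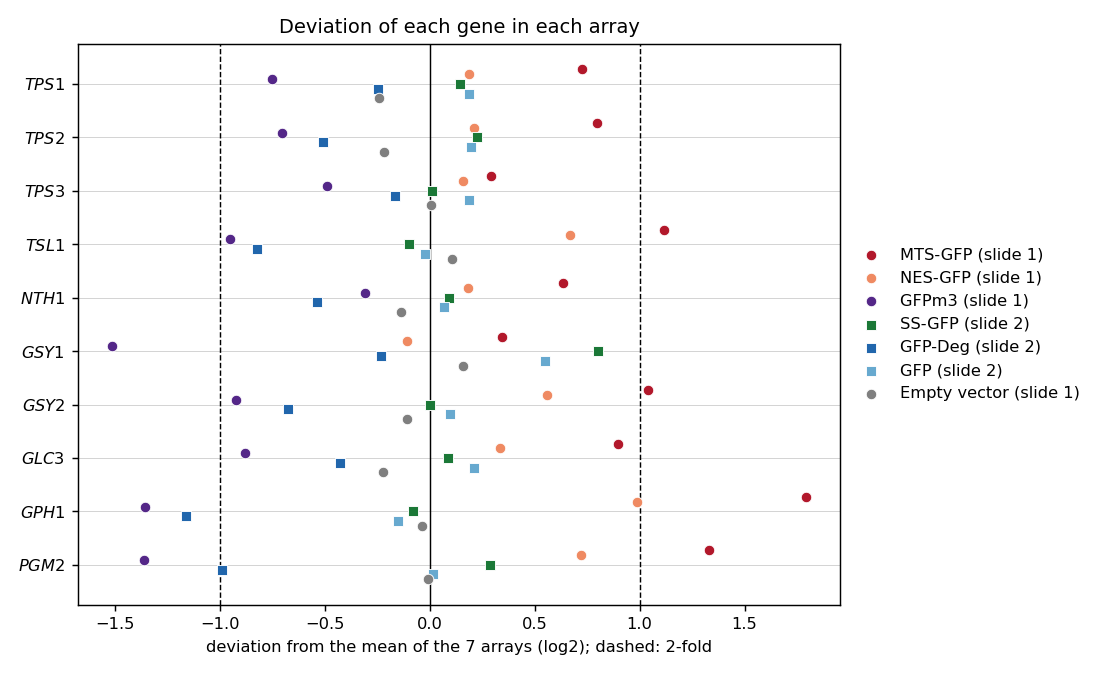
Deviation of each of the 10 genes (down the page) in each array, as log2 against the mean of the 7 arrays, with circles for slide 1, squares for slide 2 and dashed lines at 2-fold. MTS-GFP lies at the right end for 9 genes and GFPm3 at the left end for 9, and the points of *GPH1* are the most widely spread, between 1.79 and -1.35.

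*TPS1* (YBR126C) encodes trehalose-6-phosphate synthase. Its scaled signal was 7.28 in MTS-GFP, 5.01 in NES-GFP, 2.62 in GFPm3, 4.87 in SS-GFP, 3.72 in GFP-Deg, 5.02 in GFP and 3.73 in the empty vector. MTS-GFP stood above all other arrays and GFPm3 below them, and neither the levels of GFP, NES-GFP and SS-GFP nor those of GFP-Deg and the empty vector differed from their neighbour by more than the sum of the spot SDs. *TPS2* (YDR074W), the gene of the phosphatase that removes the phosphate from trehalose-6-phosphate, had 5.27 in MTS-GFP, 3.51 in NES-GFP, 1.87 in GFPm3, 3.55 in SS-GFP, 2.13 in GFP-Deg, 3.47 in GFP and 2.61 in the empty vector. *TPS1* and *TPS2* followed each other closely, with deviations that differed by no more than 0.26 in any array, and this largest difference was in GFP-Deg.

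*TSL1* and *TPS3* encode the related regulatory subunits of the complex, and they differed in how far they varied. *TSL1* (YML100W) had a scaled signal of 2.42 in MTS-GFP, 1.77 in NES-GFP, 0.576 in GFPm3, 1.04 in SS-GFP, 0.63 in GFP-Deg, 1.1 in GFP and 1.20 in the empty vector, a 4.20-fold range. *TPS3* (YMR261C) had 1.80 in MTS-GFP, 1.64 in NES-GFP, 1.05 in GFPm3, 1.48 in SS-GFP, 1.31 in GFP-Deg, 1.67 in GFP and 1.47 in the empty vector, a 1.72-fold range. Both were highest in MTS-GFP and lowest in GFPm3, but only 5.43% of all genes had a larger range than *TSL1*, while 48.3% had a larger range than *TPS3*. For *TPS3*, even the first place of MTS-GFP was narrow, since its gap of 0.105 to GFP on the log2 scale was close to the sum of the spot SDs of both arrays, 0.104.

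*NTH1* (YDR001C) encodes the neutral trehalase, which breaks down trehalose in the cytosol. Its scaled signal was 2.42 in MTS-GFP, 1.77 in NES-GFP, 1.26 in GFPm3, 1.66 in SS-GFP, 1.07 in GFP-Deg, 1.63 in GFP and 1.42 in the empty vector. The gene of breakdown was thus highest in the same array as the genes of synthesis, while its lowest level was in GFP-Deg and not in GFPm3. Its range of 2.26-fold was exceeded by 22.9% of all genes.

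**Figure D2:**
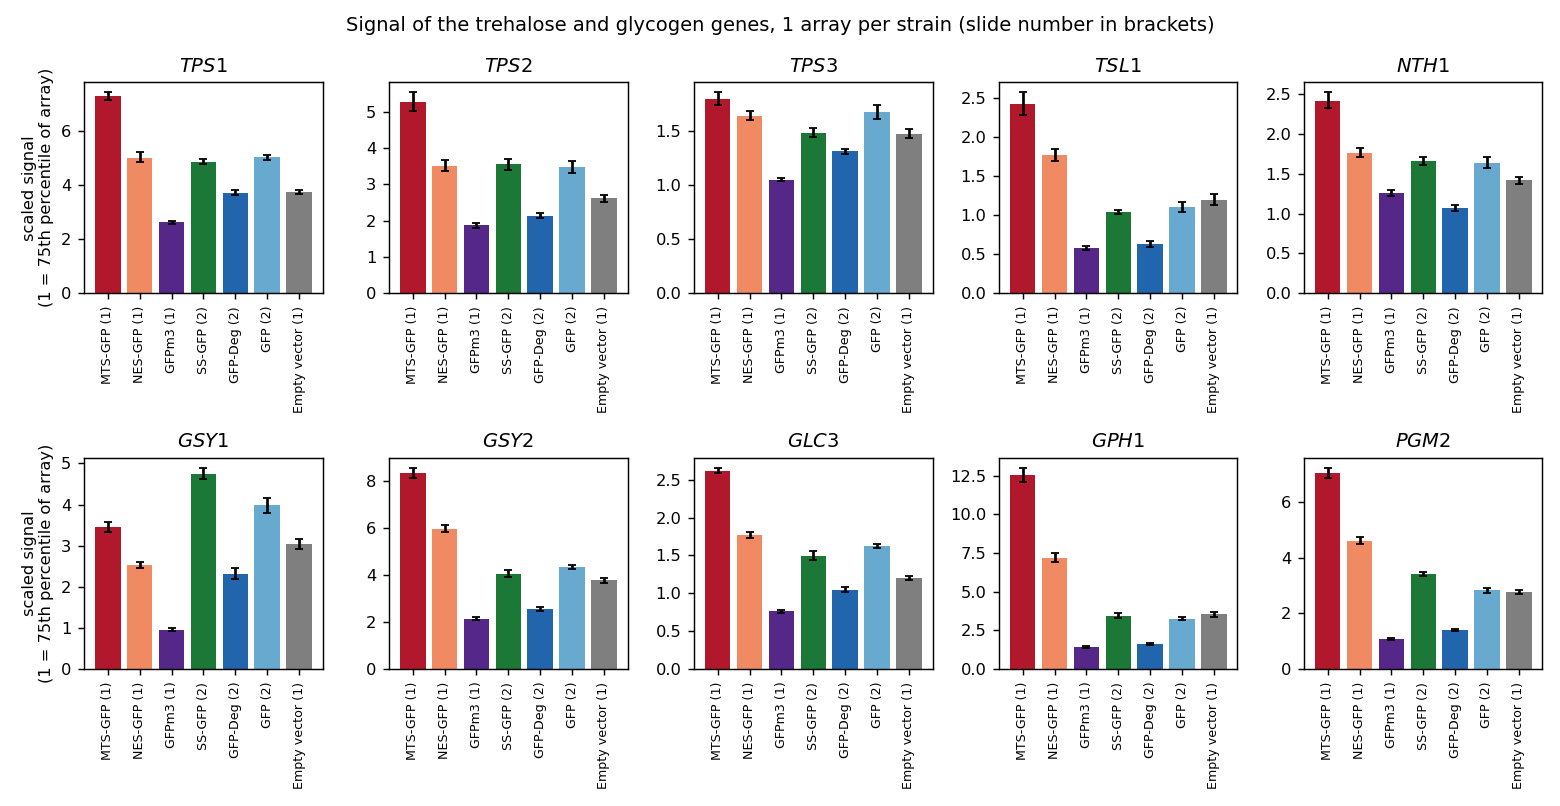
Scaled signal of each gene in each of the 7 arrays, where 1 is the 75th percentile of the array, with bars for the single array of a strain and error bars for the SD between the spots of the probe, which were taken on the log2 scale. Axes differ between genes, and levels can be compared between arrays but not between genes. The bar of MTS-GFP is the tallest in every panel except that of *GSY1*, where SS-GFP reaches 4.75.

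Glycogen synthase is encoded by a pair of related genes, *GSY1* and *GSY2*, and these had different patterns. *GSY2* (YLR258W), which encodes the predominant isoform, had a scaled signal of 8.34 in MTS-GFP, 5.97 in NES-GFP, 2.14 in GFPm3, 4.06 in SS-GFP, 2.54 in GFP-Deg, 4.33 in GFP and 3.77 in the empty vector. *GSY1* (YFR015C) had 3.45 in MTS-GFP, 2.52 in NES-GFP, 0.955 in GFPm3, 4.75 in SS-GFP, 2.31 in GFP-Deg, 3.98 in GFP and 3.04 in the empty vector. Both were lowest in GFPm3. The deviation of *GSY1* minus that of *GSY2* was -0.70 in MTS-GFP, -0.67 in NES-GFP and -0.59 in GFPm3, but 0.80 in SS-GFP, 0.44 in GFP-Deg, 0.45 in GFP and 0.26 in the empty vector. *GSY1* was relatively high on the arrays of slide 2, and its mean on slide 1 was 0.65 lower than that on slide 2 on the log2 scale. Against the mean of the same slide, *GSY1* and *GSY2* were at 0.62 and 0.90 in MTS-GFP, 0.17 and 0.42 in NES-GFP, and -1.23 and -1.06 in GFPm3. They were at 0.43 and 0.19 in SS-GFP, -0.61 and -0.48 in GFP-Deg, and 0.18 and 0.29 in GFP. By this measure, their signs differed only in the empty vector, with 0.44 and -0.25. Compared within slide 1 only, *GSY1* was also highest in MTS-GFP, and there MTS-GFP had the highest level of 10 of the 10 genes, against 25.5% of all genes. The part of the slide in the pattern of *GSY1* was not tested, nor was hybridization of one gene's transcript to the probe of the other.

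*GLC3* (YEL011W) encodes the glycogen branching enzyme. Its scaled signal was 2.62 in MTS-GFP, 1.77 in NES-GFP, 0.764 in GFPm3, 1.5 in SS-GFP, 1.05 in GFP-Deg, 1.63 in GFP and 1.21 in the empty vector. As for *GSY1* and *GSY2*, all 7 levels of *GLC3* differed from their neighbours in the order by more than the sum of the spot SDs. It was the gene nearest to the median pattern of the group, in which its own values count, with a root mean square difference of 0.08 over the 7 arrays.

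*GPH1* (YPR160W) encodes glycogen phosphorylase, which releases glucose-1-phosphate from glycogen, and it varied most among the 10 genes. It had a scaled signal of 12.5 in MTS-GFP, 7.19 in NES-GFP, 1.42 in GFPm3, 3.44 in SS-GFP, 1.62 in GFP-Deg, 3.26 in GFP and 3.54 in the empty vector. The 8.84-fold range between MTS-GFP and GFPm3 was exceeded by only 1.43% of all genes. MTS-GFP lay 0.80 above NES-GFP on the log2 scale, and NES-GFP 1.02 above the empty vector. GFP-Deg lay 1.01 below GFP and 0.19 above GFPm3. Between them was a middle set of SS-GFP, GFP and the empty vector, in which neighbours did not differ by more than the sum of their spot SDs. *PGM2* (YMR105C), which encodes the major phosphoglucomutase, had the next largest range, 6.46-fold (2.43% of all genes had a larger one). Its scaled signal was 7.03 in MTS-GFP, 4.61 in NES-GFP, 1.09 in GFPm3, 3.41 in SS-GFP, 1.41 in GFP-Deg, 2.83 in GFP and 2.78 in the empty vector. *PGM2* thus had the same highest and lowest arrays as *GPH1*, with SS-GFP somewhat above GFP and the empty vector. For *PGM2*, NES-GFP lay 0.61 below MTS-GFP and 0.43 above SS-GFP on the log2 scale.

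Over the 10 genes, the median range was 1.87 on the log2 scale, while the median over all genes was 0.76 and the 90th percentile of all genes was 1.67. Of the 60 pairs of neighbours in the order of levels of the 10 genes, 46 differed by more than the sum of the spot SDs and 14 did not. Most of these 14 were among SS-GFP, GFP, NES-GFP and the empty vector, in the middle of the order. The same count was not made over all genes, so it does not set the 10 genes apart from others. Synthesis and breakdown were not separated by direction. The median deviation of the 4 genes of trehalose synthesis was 0.76 in MTS-GFP and -0.73 in GFPm3, that of the 3 genes of glycogen synthesis was 0.90 in MTS-GFP and -0.92 in GFPm3, and both genes of breakdown, *NTH1* and *GPH1*, had the same signs in these arrays.

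The difference from the empty vector on the same slide was examined for MTS-GFP, NES-GFP and GFPm3. The array of the empty vector is shared by these differences, so that an error on it would move all of them together. In MTS-GFP, 10 of the 10 genes were higher than in the empty vector (47% of all genes were), with a median log2 difference of 1.01, and *TPS2*, *TSL1*, *GSY2*, *GLC3*, *GPH1* and *PGM2* were over 2-fold higher (5.75% of all genes). *GPH1* was 3.55-fold and *PGM2* 2.53-fold higher, while *GSY1*, with a log2 difference of 0.19, differed least. *TPS2* and *TSL1*, both at 1.01, stood just inside the threshold and *TPS1*, at 0.96, just outside it.

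In NES-GFP, 9 of the 10 genes were higher than in the empty vector (47.3% of all genes), with a median log2 difference of 0.49. *GPH1*, at 2.03-fold, was the 1 gene over the threshold (3.29% of all genes), and *GSY1* was lower, with a log2 difference of -0.27. In GFPm3, 10 of the 10 genes were lower than in the empty vector (44% of all genes), with a median of -0.74. *TSL1* (-1.06), *GSY1* (-1.67), *GPH1* (-1.32) and *PGM2* (-1.35) were over 2-fold lower (1.72% of all genes), and *NTH1*, at -0.17, differed least.

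MTS-GFP and GFPm3 were expressed from the same promoter and measured on the same slide, so that neither promoter nor slide differed between them. All 10 genes were higher in MTS-GFP than in GFPm3 (39.9% of all genes), with a median log2 difference of 1.82. It was over 2-fold for 8 of them (4.55% of all genes), all except *TPS3* at 0.78 and *NTH1* at 0.94, with *GPH1* 8.84-fold, *PGM2* 6.46-fold and *TSL1* 4.20-fold higher in MTS-GFP. NES-GFP was on the same slide but expressed from *HXT7pro*, so promoter and modification cannot be told apart in its differences from GFPm3 and MTS-GFP. All 10 were also higher in NES-GFP than in GFPm3 (37% of all genes), with a median of 1.31, and 6 were over 2-fold higher (2.2% of all genes), led by *GPH1* at 2.34 and *PGM2* at 2.08. MTS-GFP was set against NES-GFP only after the values had been seen. There the 10 genes had a median log2 difference of 0.51, with 10 of 10 higher in MTS-GFP (47.2% of all genes) and 0 over 2-fold (1.12% of all genes).

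On slide 2, GFP-Deg and GFP shared the promoter *TDH3pro* as well as the slide. In GFP-Deg, 10 of the 10 genes were lower than in GFP (51.2% of all genes), with a median log2 difference of -0.74. *GPH1* and *PGM2*, both at -1.01, were just over 2-fold lower (0.594% of all genes), followed by *TSL1* at -0.80 and *GSY1* at -0.78, and *TPS3*, at -0.35, differed least. SS-GFP, which had another promoter than GFP, showed no common direction, with 5 genes higher (38% of all genes) and 5 lower than in GFP, a median of -0.01 and 0 genes over 2-fold (0.948% of all genes were over 2-fold higher and 0.98% lower). The most separated genes there were *PGM2* at 0.27, *GSY1* at 0.26 and *TPS3* at -0.17.

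**Figure D3:**
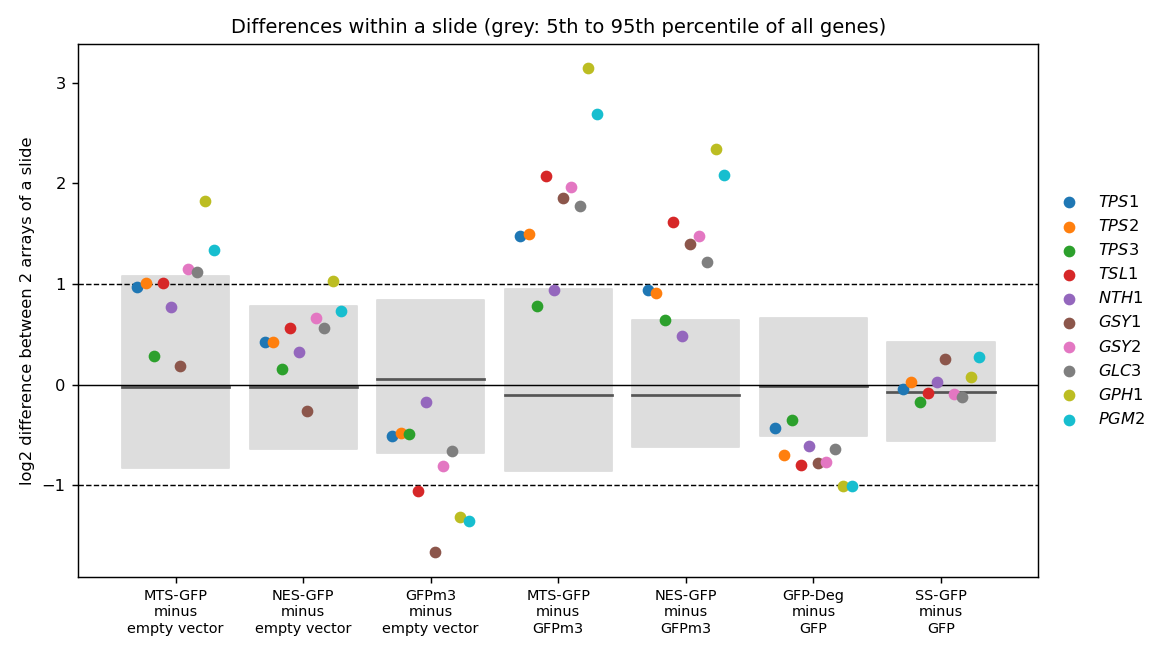
Log2 difference of each of the 10 genes between pairs of arrays of the same slide, with grey boxes for the 5th to 95th percentile of all genes, grey lines for the median of all genes and dashed lines at 2-fold. For GFP-Deg minus GFP, 8 of the 10 points lie below the box, whose lower edge is at -0.51, and for MTS-GFP minus GFPm3, 8 lie above the box, whose upper edge is at 0.95.

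The differences of SS-GFP, GFP-Deg and GFP from the empty vector were between slides, so that slide and construct cannot be told apart in them. In GFP-Deg, the 10 genes were lower than in the empty vector, with a median log2 difference of -0.40 (44.6% of all genes were lower), but that of *TPS1* was within the spot SDs, and *GPH1*, at -1.12, was the 1 gene over 2-fold lower (1.51% of all genes). In SS-GFP and in GFP, 8 of the 10 genes were higher than in the empty vector (49.2% and 54.6% of all genes), and the medians were 0.26 and 0.20. In SS-GFP, 0 of the 10 were over 2-fold in either direction (3.37% of all genes were higher and 1.29% lower), and the same held for GFP (4.63% higher and 1.11% lower). When each array was instead set against the mean of the arrays on its own slide, the median of the 10 genes was 0.82 in MTS-GFP, 0.25 in NES-GFP, -0.99 in GFPm3, 0.22 in SS-GFP, -0.48 in GFP-Deg, 0.24 in GFP and -0.23 in the empty vector. By this measure, *TSL1*, *GSY1*, *GSY2*, *GPH1* and *PGM2* were over 2-fold lower in GFPm3 (0.723% of all genes), and *GPH1* and *PGM2* over 2-fold higher in MTS-GFP (1.91% of all genes). In GFP-Deg, 0 of the 10 were over 2-fold lower by this measure (0.0643% of all genes), and *GPH1* was at -0.70.

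The plasmid markers also differed between the strains. *URA3* had a scaled signal of 12.1 in MTS-GFP, 36.6 in NES-GFP, 10.5 in GFPm3, 21.6 in SS-GFP, 30.01 in GFP-Deg, 57.8 in GFP and 107.7 in the empty vector. It was thus lowest in GFPm3 and MTS-GFP, the arrays in which the trehalose and glycogen genes were at opposite ends. *LEU2* had 2.12 in MTS-GFP, 6.57 in NES-GFP, 2.99 in GFPm3, 3.72 in SS-GFP, 3.07 in GFP-Deg, 7.04 in GFP and 9.66 in the empty vector. The part of the plasmid and its markers in the levels of the 10 genes was not tested.

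The other enzymes of the pathways were next examined as a list of 11 genes, from glucose phosphorylation to the glycogen primer. Their median deviation was 0.68 in MTS-GFP, where 9 were above their mean (43.9% of all genes), and -0.44 in GFPm3, where 8 were below it (45.4% of all genes). In at least 1 array, *GDB1*, *SGA1*, *HXK1* and *GLK1*, that is 4 of the 11, deviated by more than 2-fold, against the 8.96% of all genes. *GDB1*, the gene of the glycogen debranching enzyme, which acts with the phosphorylase, had deviations of 1.69 in MTS-GFP, 1.06 in NES-GFP, -0.76 in GFPm3, -0.60 in SS-GFP, -0.86 in GFP-Deg, -0.54 in GFP and 0.01 in the empty vector. As for *GPH1*, MTS-GFP and NES-GFP were the highest arrays, but the 4 values below 0 lay close together, and GFPm3 and GFP-Deg did not stand apart. Of these, the values of SS-GFP, GFP-Deg and GFP came from slide 2 and that of GFPm3 from slide 1. Against the mean of the same slide, *GDB1* was at -1.26 in GFPm3, 0.06 in SS-GFP, -0.19 in GFP-Deg and 0.13 in GFP. The part of the slide in the pattern of *GDB1* was not tested. *HXK1*, a hexokinase gene, had 1.17 in MTS-GFP, 0.44 in NES-GFP, -0.95 in GFPm3, -0.05 in SS-GFP, -0.74 in GFP-Deg, 0.38 in GFP and -0.25 in the empty vector.

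The glucokinase gene *GLK1* was at 0.62 in MTS-GFP and -1.23 in GFPm3, its extremes. *SGA1*, which encodes the glucoamylase of sporulation, went a different way, with 1.001 in MTS-GFP, just over the threshold, 0.44 in both NES-GFP and GFPm3, and its lowest value, -0.84, in the empty vector. The exceptions in MTS-GFP were *HXK2*, the hexokinase gene that predominates on glucose, and *PGM1*, the minor phosphoglucomutase gene, both at -0.43. For *HXK2* this was not particular to MTS-GFP, since it was at -0.37 in NES-GFP and -0.48 in GFPm3, also on slide 1. Against the mean of the same slide, *HXK2* was at -0.17 in MTS-GFP and *PGM1* at -0.33. *PGM2* and *PGM1* therefore differed in pattern, and the deviation of *PGM2* minus that of *PGM1* was 1.77 in MTS-GFP, 0.73 in NES-GFP, -1.20 in GFPm3, -0.18 in SS-GFP, -1.08 in GFP-Deg, 0.16 in GFP and -0.21 in the empty vector. *UGP1*, which makes the UDP-glucose that both pathways use, was at 0.76 in MTS-GFP and -0.76 in GFPm3.

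**Figure D4:**
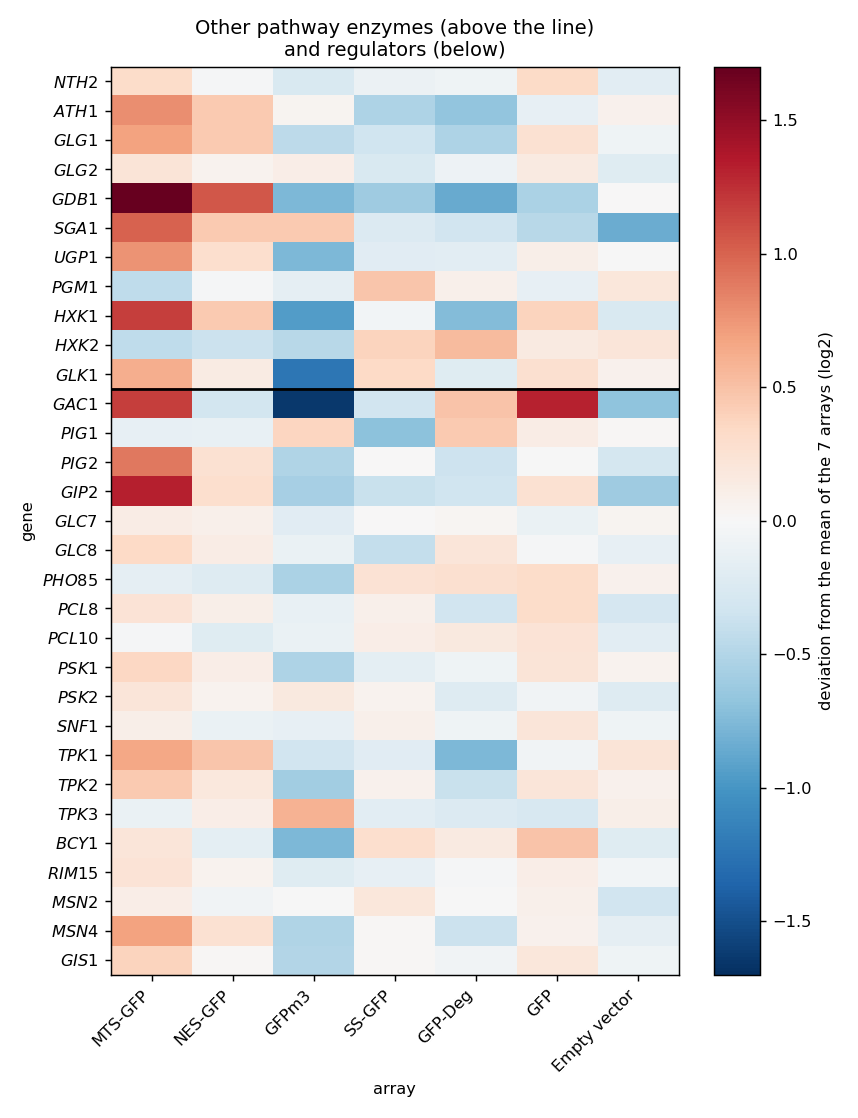
Deviation (log2, colour) of the 11 other enzymes, above the line, and of the 20 regulators, below it, in each of the 7 arrays (columns), against the mean of the arrays. *GDB1* in MTS-GFP, at 1.69, and *GAC1* in GFPm3, at -1.64, are the extremes, and most regulators are pale in every column.

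Of the 20 regulators (targeting subunits of protein phosphatase 1, protein kinases, and the transcription factors of the general stress response), 2 deviated by more than 2-fold in at least 1 array, which is near the share of all genes. Their median deviation was 0.24 in MTS-GFP, with 16 above their mean (43.9% of all genes), and -0.27 in GFPm3, with 17 below it (45.4% of all genes). The 2 genes over 2-fold were *GAC1*, which encodes the subunit that directs protein phosphatase 1 to glycogen synthase, and *GIP2*, which encodes a related subunit. *GAC1* had 1.17 in MTS-GFP, -0.32 in NES-GFP, -1.64 in GFPm3, -0.33 in SS-GFP, 0.48 in GFP-Deg, 1.31 in GFP and -0.68 in the empty vector. GFP, on slide 2, was thus higher than MTS-GFP, on slide 1. Against the mean of the same slide, *GAC1* was at 1.54 in MTS-GFP, 0.05 in NES-GFP, -1.27 in GFPm3 and -0.32 in the empty vector. On slide 2, it was at -0.82 in SS-GFP, -0.01 in GFP-Deg and 0.82 in GFP. The part of the slide in the pattern of *GAC1* was not tested. *GIP2* had 1.32 in MTS-GFP, 0.29 in NES-GFP, -0.56 in GFPm3, -0.37 in SS-GFP, -0.33 in GFP-Deg, 0.25 in GFP and -0.60 in the empty vector. Of the related transcription factor genes, *MSN4* was at 0.69 in MTS-GFP and -0.51 in GFPm3, while *MSN2* was at 0.11 in MTS-GFP and -0.01 in GFPm3.

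Finally, the genes whose deviations were nearest to the median pattern of the 10 genes were looked up among 5968 other genes well above background on all 7 arrays. The nearest 8 were *STF2*, YMR090W, *ALD4*, *MSN4*, *UGP1*, *TMA17*, *NNR1* and *PIG2*, with root mean square differences over the 7 arrays of 0.10 for *STF2* up to 0.19 for *PIG2*. *STF2* had 0.82 in MTS-GFP, 0.33 in NES-GFP, -0.90 in GFPm3, 0.17 in SS-GFP, -0.34 in GFP-Deg, 0.17 in GFP and -0.25 in the empty vector. *MSN4*, *UGP1* and *PIG2* also belonged to the lists of enzymes and regulators. Of the 10 genes themselves, *TPS2* (0.11), *GSY2* (0.15) and *TPS1* (0.15) were about as near to their own median pattern, while *GSY1* (0.47) and *GPH1* (0.55) were farther from it. The values of the 10 genes count in that median and those of the other genes do not, so their distances are not on equal terms. This likeness is over 7 single arrays and is a description only.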

How the data were processed

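Total RNA of 7 strains was labelled with Cy3 and hybridized to Agilent yeast arrays. The authors deposited Feature Extraction output, from which the processed signal was used, an intensity corrected for background and not normalized between arrays. The deposited series table equals it for 45209 of 45209 values in each array, within a relative tolerance of 1e-06. The paper names the agilp package but not its normalization step. After removal of control spots, values were put on the log2 scale relative to the array's own 75th percentile (3693 in GFP to 5624 in NES-GFP). They were then averaged without the outlier spots (252 to 373 per array), first over the 7 spots and then over the probes of a name. Of the yeast spots, 97.0% to 98.9% were well above background and 0 saturated. With 1 array per construct, the number of arrays limits the precision and no test was made. Of the 6225 names, 5737 matched the RefSeq gene table, used for names only. Alternatives were quantile and loess normalization, normexp (offset 50) with quantile normalization, no scaling, median scaling, the median of spots, a filter on dim probes, other averages and other thresholds. The 10 genes and all lists were chosen with earlier results of these data known. The named genes are the 10, the listed genes past 2-fold, the 8 nearest patterns, and the host and plasmid markers. *PGM1* and *HXK2* are named as the listed enzymes below their mean in MTS-GFP, and *MSN2* beside the related *MSN4*. The other listed genes are not named, among them exceptions in direction. A search of promoters for AGGGG was planned and not run, and no sequences were used here. Python 3.11.15 and R 4.3.3 with limma 3.58.1 were used, and the steps were tested on simulated data.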

Additional observations from a re-analysis of the deposited data

How the results depend on the processing

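Every median kept its direction under each alternative except where given here, and the genes over 2-fold were the same 5 (*TSL1*, *GSY1*, *GSY2*, *GPH1*, *PGM2*) in at least 1 array under all 9 alternatives at that threshold. By array, the count over 2-fold lower in GFPm3, 3 as reported, was 4 with quantile normalization and 5 with median scaling or against the slide mean, and that over 2-fold higher in MTS-GFP, 4 as reported, was 2 against the slide mean. The matching shares of all genes by array were not counted with quantile normalization or median scaling. At 1.5-fold, 9 of the 10 genes passed (31.7% of all genes), and at 3-fold 1, *GPH1* (2.51%). The medians that moved by more than the pooled spot SD of 0.11 were these. With loess normalization, the median deviation was 0.97 in MTS-GFP and 0.024 in GFP, and the difference from the empty vector was 1.25 in MTS-GFP, 0.65 in NES-GFP and -0.61 in GFPm3. With quantile normalization, that difference was 1.19 in MTS-GFP and 0.60 in NES-GFP, and with normexp and quantile normalization 1.18 in MTS-GFP. Against the median of the 7 arrays, the deviation was 0.70 in MTS-GFP, -0.64 in GFP-Deg and 0.022 in GFP. Against the mean of the same slide, it was 0.22 in SS-GFP and -0.23 in the empty vector.

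Without scaling, the medians of all genes were themselves shifted, by 0.27 in NES-GFP and GFPm3, -0.15 in GFP-Deg and -0.27 in GFP. The deviation of the 10 genes was then 0.58 in NES-GFP, -0.67 in GFPm3, -0.72 in GFP-Deg and -0.16 in GFP. The difference from the empty vector was 1.13 in MTS-GFP, 0.84 in NES-GFP, -0.46 in GFPm3, -0.55 in GFP-Deg and -0.054 in GFP. Between other arrays it was 0.22 for SS-GFP minus GFP, -0.63 for GFP-Deg minus GFP, 1.66 for MTS-GFP minus GFPm3 and 0.28 for MTS-GFP minus NES-GFP. Only 3 of the 10 genes were then lowest in GFPm3 and 8 highest in MTS-GFP, with no share of all genes counted for this setting. Thus the medians of GFP, of GFP minus the empty vector and of SS-GFP minus GFP changed sign without scaling, and the last, near 0 to begin with (-0.01), also did so with loess, median scaling, and normexp with quantile normalization. The 10 genes lay above their mean in MTS-GFP and below it in GFPm3 and GFP-Deg under every setting. For this, the shares of all genes were counted only as reported and against the slide mean. No paired analysis was possible because each construct had 1 array, and a slide block could not be fitted for the same reason.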
